A study of Mus musculus with 48 samples.

Results

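The genes described here encode the enzymes that turn arachidonic acid into prostaglandins, thromboxane and leukotrienes. There were 10 of them among the 51789 gene IDs of the deposited count table: Ptgs1, Ptgs2, Hpgds, Ptgds, Ptges, Tbxas1, Alox5, Alox5ap, Lta4h and Ltc4s. They were chosen by symbol, and Hpgds was picked because its level fell in 3 macrophage populations and rose in 1 after the compound AP-3-84. The values of Hpgds are therefore given as a description, with no test, also between vehicle groups, since those are the controls of the contrasts that chose it. Counts of members called are over the other genes.

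RNA was measured in 48 libraries of mouse macrophages, in 16 groups of 3. In 8 populations, cells were exposed for 4 h to 10 µM AP-3-84, a compound the labels name and do not describe, or to its vehicle DMSO, and the series asks how the compound changes gene expression. The ascites population was F4/80+ cells washed from the peritoneum of mice that had carried the ovarian cancer line ID8 for 45 days, and its genotype field reads B6(Cg)-Tyrc-2J/J. The thio population was F4/80+ cells drawn into the peritoneum by the irritant thioglycollate (1 ml at 3%, 4 days before harvest), from mice labelled wild-type C57BL/6. Both were selected with magnetic beads. The other 6 populations were macrophages derived from bone marrow with 10 ng/mL M-CSF over 6 days, from wild-type (WT) or p53 knockout (KO) mice, in the states M0, M1 and M2, written below as WT_M0 or KO_M2 and so on. M0 cells got no further cytokine. M1 cells had a further 24 h with 100 ng/mL LPS, a bacterial lipopolysaccharide, and 50 ng/mL IFN-γ, and M2 cells had 24 h with 10 ng/mL IL-4 plus 10 ng/mL IL-13. All 48 samples carry the strain label C57BL/6. The sources used here do not give the deleted part of the p53 gene, the number of mice per group or any pooling, so p-values measure the spread between these libraries, which may be technical.

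In this pathway a phospholipase frees arachidonic acid from membranes. The cyclooxygenases COX-1 (Ptgs1, broadly present) and COX-2 (Ptgs2, inducible) convert it to prostaglandin H2, from which terminal synthases make prostaglandin D2 (Hpgds and Ptgds), prostaglandin E2 (Ptges) or thromboxane A2 (Tbxas1). In the other branch 5-lipoxygenase (Alox5) works with its membrane partner FLAP (Alox5ap) to make leukotriene A4, which Lta4h hydrolyses to the neutrophil attractant leukotriene B4 and Ltc4s couples to glutathione to give leukotriene C4. Macrophages are a main source of these lipids, and inflammatory stimuli such as LPS are known to raise Ptgs2 and Ptges together, which shifts output toward prostaglandin E2.

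By the GRCm38 annotation the prostaglandin genes lie at chr2:36230426-36252272 (Ptgs1), chr1:150100031-150108227 (Ptgs2), chr6:65117293-65144908 (Hpgds), chr2:25466709-25470046 (Ptgds), chr2:30889471-30929863 (Ptges) and chr6:38875404-39084585 (Tbxas1). The leukotriene genes lie at chr6:116410077-116461178 (Alox5), chr5:149264767-149288153 (Alox5ap), chr10:93453411-93484875 (Lta4h) and chr11:50236461-50238616 (Ltc4s). All 10 are protein-coding. Tbxas1 overlaps Hipk2, a protein-coding gene on the opposite strand, and Ltc4s and Alox5ap each overlap an antisense gene. The sources used here do not say whether counting used strand, so reads of Tbxas1 and Hipk2 may not have been told apart.

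Promoter sequence from RefSeq (GRCm38.p6) was found for 9 of the 10 genes. The 250 bases before the RefSeq start were searched on both strands for 9 motifs. The letters AGGAAGT, which are the core bound by the macrophage factor PU.1, were present in Hpgds, Ltc4s and Ptgs1 and in 7.686% of the 32851 promoters in the table. A match says only that these letters are present. The stretches around them are shown, with the motif in capitals, because Ptgs1 and Ltc4s were among the members that differed most between populations.
Hpgds, chr6:65144761-65144789, minus strand, -48 to -42 from the start: cttttaggtggAGGAAGTggcctctggct
Ltc4s, chr11:50238632-50238660, minus strand, -117 to -111 from the start: gaacaactggaAGGAAGTggtcaagctgt
Ptgs1, chr2:36230392-36230420, plus strand, -23 to -17 from the start: ggctggagcagAGGAAGTtggcggtcagc
The Hpgds stretch lies in an exon of the GENCODE annotation, which places the start of that gene further upstream than RefSeq does. The other pair lies outside annotated exons.

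The letters TTC and GAA with 4 bases between them, read by STAT6, the transcription factor that IL-4 and IL-13 activate, were present in Tbxas1 and Ptges and in 5.854% of all promoters. Tbxas1 also held the AP-1 letters TGANTCA, which 6.749% of promoters contain. The Tbxas1 stretches and the whole Ptges window (chr2:30903298-30903547, minus strand, match at -197 to -188) are shown because Tbxas1 rose with IL-4 and IL-13 in WT cells and Ptges with LPS and IFN-γ. The GRCm38 annotation starts Tbxas1 at 38875404 and Ptges at 30929863, so both windows lie inside the annotated genes. The Tbxas1 stretch with the STAT6 letters also lies in an annotated exon on the opposite strand.
Tbxas1, chr6:38918855-38918884, plus strand, STAT6 letters: ctgctcctgtTTCTGGGGAAgctaacataa
Tbxas1, chr6:38918914-38918942, plus strand, AP-1 letters: aataaagttgcTGATTCAttgccctgaag
Ptges: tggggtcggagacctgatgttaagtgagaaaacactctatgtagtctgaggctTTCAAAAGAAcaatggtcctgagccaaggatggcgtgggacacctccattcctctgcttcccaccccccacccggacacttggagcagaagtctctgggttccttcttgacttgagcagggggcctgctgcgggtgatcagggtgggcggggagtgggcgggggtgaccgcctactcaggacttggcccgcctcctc
Of the other motifs, Ptgds held AP-1 and NF-kappaB letters, and the windows of Ptgs2, Alox5 and Lta4h held none of the 9.

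The 12 peritoneal libraries held between 15532373 and 19417581 counts and the 36 libraries of bone marrow-derived cells between 3081707 and 4645148, and both sets were fitted apart. Values are given as CPM, counts scaled to a common library total, and are compared between groups of 1 set and not between genes. Differences are log2 fold changes ± SE, called at an adjusted p under 0.05. Trp53, the p53 gene, did not separate the genotypes, at 2.7 to 9.11 CPM in KO and 4.79 to 13.2 CPM in WT libraries of bone marrow-derived cells, and with the deleted part unknown its 3′ tag checks nothing. Of p53 targets, Mdm2 overlapped too (52.8 to 218 against 146 to 444 CPM), while Cdkn1a (34.1 to 292 against 555 to 1119 CPM) did not. The target Phlda3 was at 0 to 1.31 CPM in KO libraries and at 9.17 to 40.5 CPM in WT ones of bone marrow-derived cells. Of the M1 markers, Cd38 was at 59.6 to 162 CPM in M1 libraries, against at most 17.3 CPM in the other bone marrow-derived ones, while Nos2 reached only 17.7 CPM and Cxcl9 5.81 CPM in M1 cells. Gbp2, on the same list, was at 31.4 to 81.8 CPM in M1 libraries and reached 313 CPM in M2 ones. The M2 markers Arg1 and Chil3 were highest in M2 libraries (689 to 2815 CPM and 1380 to 6183 CPM). The heat-shock gene Hspa1a was higher with AP-3-84 than with vehicle in every library of all 8 populations. It is 1 of 5 genes listed as checks of treatment, whose sums separated the arms in ascites, thio, WT_M0, WT_M2 and KO_M2 cells only. The sums overlapped in WT_M1 (933 to 1525 CPM with AP-3-84, 819 to 960 CPM in vehicle) and KO_M1 (493 to 830 and 494 to 784 CPM). They also overlapped in KO_M0 (296 to 752 and 242 to 305 CPM). The 11 mast cell and basophil markers, cells rich in Hpgds and Ltc4s, summed to at most 3.40 CPM in bone marrow-derived and 4.29 CPM in peritoneal libraries.

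Libraries of 3 groups stood apart within their group. Replicate 1 of WT_M2 vehicle had 1089 CPM of Marco, a scavenger receptor high in M1 cells, against 130 and 83.6 CPM in the other replicates, with S100a8, a neutrophil gene, at 2310 against 306 and 261 CPM. Replicates 1 and 2 of KO_M0 with AP-3-84 had 2896 and 2067 CPM of Marco against 473 CPM in replicate 3 and 14.3 to 17.5 CPM in KO_M0 vehicle. As a group, KO_M0 vehicle was low in Marco and a second gene, Saa3, at 32.7 to 119 CPM in sum against 1243 to 2699 CPM in WT_M0 vehicle. With AP-3-84 these sums were 860 to 4610 CPM in KO_M0 and 1808 to 2092 CPM in WT_M0. KO_M2 vehicle had 5858 CPM of the M2 marker Retnla in replicate 1 and 455 and 406 CPM in replicates 2 and 3. Member calls decided by the libraries that stood apart within their group are given with and without them. In bulk libraries, fewer cells of a type and less RNA per cell cannot be told apart.

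**Figure D1:**
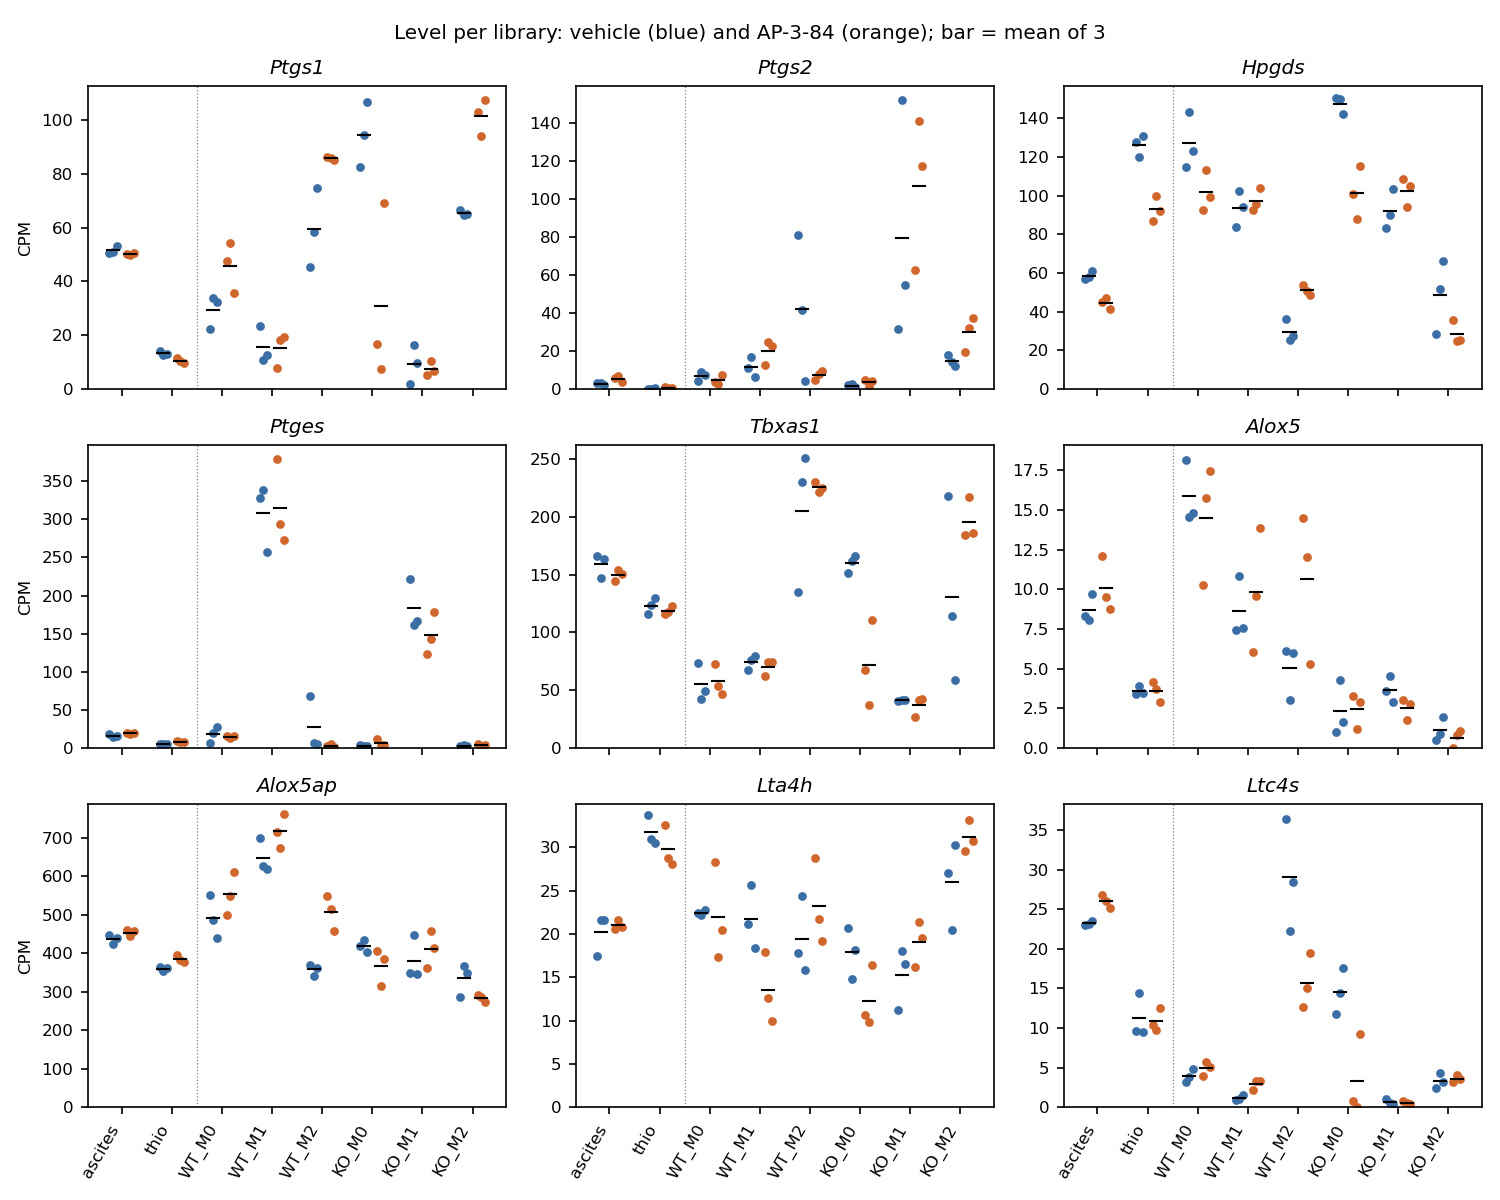
Level in CPM (y axis, linear, from 0) of the 9 genes that passed the count filter, by population (x axis), with 1 point per library, vehicle in blue and AP-3-84 in orange, and a bar at the mean of 3; the dotted line separates the peritoneal from the bone marrow-derived set, which were scaled apart. Ptges stood at 258 to 338 CPM in WT_M1 vehicle and at 161 to 222 CPM in KO_M1 vehicle, above every library of the M0 and M2 groups. Among the bone marrow-derived groups, Hpgds was lowest in the M2 groups.

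Ptgds, the brain-type prostaglandin D synthase, was nearly absent. It had 1 count over all 36 bone marrow-derived libraries and did not pass the filter in either set, with 13 and 15 counts in the ascites groups, 2 in thio vehicle and 0 in thio with AP-3-84. The 0 counts of the thio group with AP-3-84 allow up to 0.0661 CPM. The other 9 genes passed in both sets.

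Hpgds, the glutathione-dependent synthase of prostaglandin D2, was lower in M2 cells than in the other bone marrow-derived cells. Among bone marrow-derived groups its mean was highest in KO_M0 vehicle (148 ± 4.65 CPM, SD, n = 3) and WT_M0 vehicle (127 ± 14.5 CPM), whose ranges overlapped. The M0 groups with AP-3-84 and all 4 M1 groups followed at means from 92.1 to 103 CPM with overlapping ranges. All M2 groups were lower, from WT_M2 with AP-3-84 (51.1 ± 2.73 CPM) through KO_M2 vehicle (48.7 ± 19) and WT_M2 vehicle (29.7 ± 5.95) to KO_M2 with AP-3-84 (28.6 ± 6.10). Neighbours in that order of M2 groups overlapped, while the libraries of WT_M2 with AP-3-84 lay above those of WT_M2 vehicle and of KO_M2 with AP-3-84.

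WT_M2 vehicle libraries held 36.5, 25.3 and 27.2 CPM of Hpgds and WT_M0 vehicle libraries 115, 143 and 123 CPM. Every M2 library was below every M0 library, with a log2 difference of -2.09. KO_M2 vehicle libraries held 28.4, 51.8 and 66.0 CPM against 150, 150 and 142 CPM in KO_M0 vehicle (-1.60), again with no overlap. In M1 cells Hpgds was at 84.1, 102 and 94.2 CPM in WT (-0.44 against M0) and at 83.2, 89.9 and 103 CPM in KO (-0.68), between the M2 and the M0 libraries of each genotype. M1 lay above M2 by 1.65 in WT and 0.92 in KO. KO_M2 stood above WT_M2 by 0.71 with overlapping libraries, and at -0.080 without replicates 2 and 3 of KO_M2 vehicle.

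With AP-3-84, the values that chose Hpgds were lower in ascites, thio and KO_M0 cells and higher in WT_M2 cells. Ascites libraries went from 56.9, 58.1 and 60.9 CPM in vehicle to 44.8, 47.0 and 41.4 CPM, a log2 difference of -0.40. Thio libraries went from 128, 120 and 131 CPM to 86.8, 100 and 92.3 CPM (-0.44), and KO_M0 libraries from 150, 150 and 142 CPM to 101, 87.8 and 115 CPM (-0.54). In WT_M2 the treated libraries were at 54.0, 50.7 and 48.6 CPM (0.78). In each of these 4 populations the treated and vehicle libraries did not overlap, and neither did they in WT_M0 (92.8, 113 and 99.5 CPM with AP-3-84, -0.32), which lay outside the choice. KO_M2 lay outside it too, at 35.7, 24.7 and 25.5 CPM with AP-3-84 (-0.77), which overlapped its vehicle libraries, spread from 28.4 to 66.0 CPM. In M1 cells the log2 differences were 0.06 (WT) and 0.15 (KO), with overlapping libraries. Without replicates 2 and 3 of KO_M2 vehicle, the KO_M2 difference was 0.03, and without replicates 1 and 2 of KO_M0 with AP-3-84 the KO_M0 difference was -0.35.

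The genes whose pattern over the 12 bone marrow-derived group means was most like that of Hpgds, among 8430 genes, were Gng2 (Pearson r = 0.949), Cttnbp2nl (0.947), Maf (0.939), Lpin2 (0.937) and Ssh2 (0.932). Among the members, Tbxas1 ran most against Hpgds (r = -0.67 over the same means). The highest correlations between members were those of Ptgs1 with Tbxas1 (0.87), Alox5 with Alox5ap (0.82), Tbxas1 with Ltc4s (0.80) and Ptgs1 with Ltc4s (0.80), and the lowest that of Ptgs1 with Ptges (-0.87). These are descriptions over groups that share a culture protocol and library scaling. Among them are the KO_M0 and WT_M2 groups whose contrasts chose Hpgds.

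Polarization split the pathway. LPS with IFN-γ raised the prostaglandin E2 synthase Ptges in both genotypes, while Ptgs1, Tbxas1 and Ltc4s stood higher in M2 than in M1 cells of both genotypes. In WT_M1 against WT_M0, 2 of 8 members were called, both higher, where 15.5% of all genes tested were called (8.01% higher and 7.49% lower). In WT_M2 against WT_M0, 5 of 8 were called (3 higher, 2 lower) beside 23.4% of all genes (12.7% higher, 10.7% lower). In KO_M1 the count was 5 of 8 (2 higher, 3 lower) beside 44.5% of all genes (22.8% higher, 21.8% lower), and in KO_M2 it was 3 of 8 (1 higher, 2 lower) beside 38% (20.1% higher, 18% lower). The members' shares in KO_M2 were thus close to the background. The median log2 difference of the 8 members was 0.17 in WT_M1, 0.81 in WT_M2, -0.18 in KO_M1 and -0.31 in KO_M2, and that of all genes lay between -0.01 and 0.02. Between M1 and M2, 6 of 8 members differed in WT (2 higher and 4 lower in M1) beside 25.5% of all genes (11.9% higher, 13.6% lower), and 7 of 8 in KO (3 and 4) beside 25.4% (12.4% higher, 13% lower). The response to polarization differed between genotypes for 4 of 8 members in M1 (1 higher and 3 lower in KO) beside 20.7% of all genes (11.2% higher, 9.51% lower), and for 2 of 8 in M2, both lower in KO, beside 27.1% (13.9% higher, 13.2% lower).

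**Figure D2:**
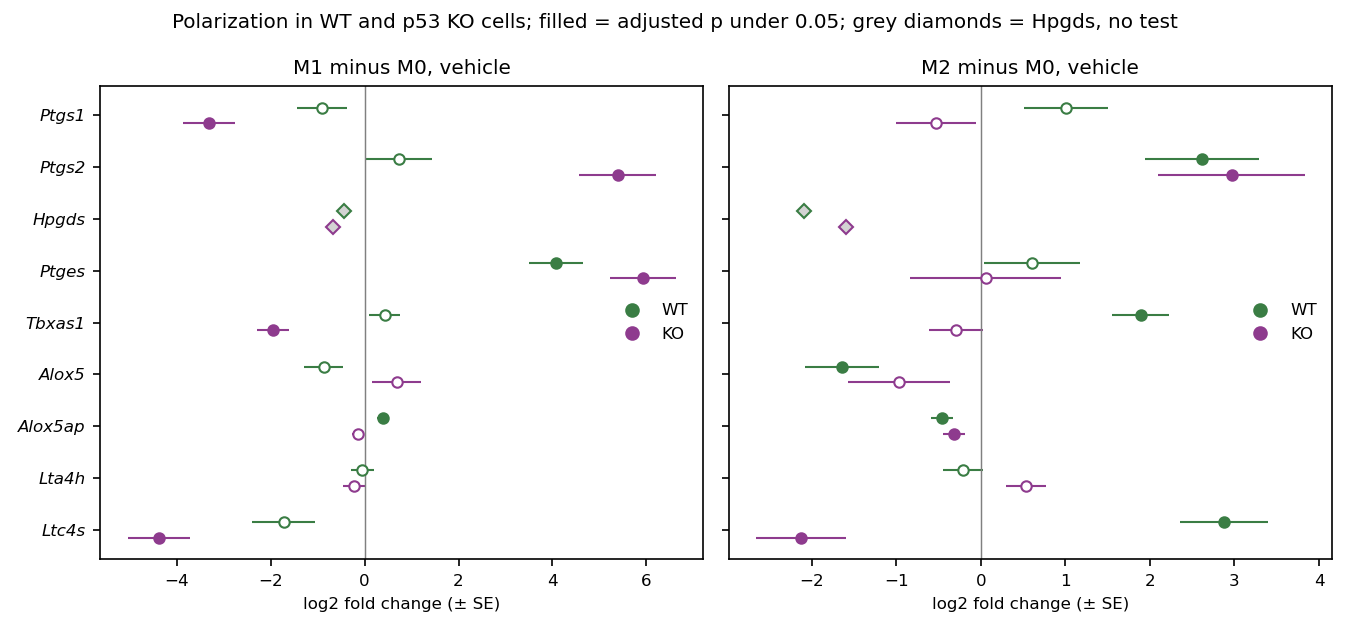
Log2 fold change ± SE (x axis) of each gene in M1 (left) and M2 (right) against M0 vehicle cells, WT in green and KO in purple, filled where the adjusted p was under 0.05, with Hpgds as grey diamonds and no test. Ptges lay at 4.08 (WT) and 5.93 (KO) in M1 cells, and Ltc4s lay at 2.88 in WT_M2 and at -2.13 in KO_M2.

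Ptges, the inducible synthase of prostaglandin E2, was at 328, 338 and 258 CPM in WT_M1 vehicle against 7.40, 19.8 and 27.6 CPM in WT_M0. In KO_M1 it was at 222, 161 and 166 CPM against 3.67, 2.46 and 2.7 CPM in KO_M0. No M1 library overlapped an M0 library of its genotype, with rises of 4.08 ± 0.58 (edgeR adjusted p = 2.85e-05) and 5.93 ± 0.70 (3.96e-07). Ptges was also higher in M1 than in M2 (3.47 ± 0.56 in WT, edgeR adjusted p = 3.72e-05, and 5.88 ± 0.69 in KO, 6.07e-07). In WT_M2 vehicle it was at 69.0 CPM in replicate 1 and at 6.94 and 6.02 CPM in the others. The WT_M2 difference from M0 was 0.61 with that library (edgeR adjusted p = 0.474) and -1.50 without it (0.016), so its direction rested on 1 library. In KO_M2 cells Ptges was at 2.39, 4.51 and 2.23 CPM, overlapping the M0 libraries.

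Ptgs2, the inducible cyclooxygenase, was highest in KO_M1 cells. These held 31.6, 152 and 54.7 CPM against 2.10, 2.46 and 1.08 CPM in KO_M0, a rise of 5.39 ± 0.82 (edgeR adjusted p = 1.01e-05). WT_M1 libraries held only 11.0, 16.7 and 6.55 CPM against 4.26, 8.84 and 7.67 CPM in WT_M0, with overlap and no call (0.72 ± 0.72, edgeR adjusted p = 0.556). The M1 response was therefore larger in KO than in WT, by 4.67 ± 1.11 (edgeR adjusted p = 0.00385). IL-4 with IL-13 also went with more Ptgs2. KO_M2 libraries held 18.0, 14.2 and 12.2 CPM (a rise of 2.96 ± 0.86, edgeR adjusted p = 0.00874), and WT_M2 libraries 81.0, 41.6 and 4.12 CPM, which spread over a wide range and overlapped M0 (2.62 ± 0.68, edgeR adjusted p = 0.006). Without replicate 1 of WT_M2 vehicle the WT_M2 rise was 1.72 (edgeR adjusted p = 0.0771), and without replicates 2 and 3 of KO_M2 vehicle the KO_M2 rise was 3.24 (0.051).

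Between the polarized states Ptgs2 pointed in opposite directions in the 2 genotypes. In KO it was higher in M1 than in M2 (2.43 ± 0.63, edgeR adjusted p = 0.00535), a difference of 1.58 without replicate 2 of KO_M1 vehicle (0.0602) and of 2.17 without replicates 2 and 3 of KO_M2 vehicle (0.138). In WT it was lower in M1 than in M2 (-1.89 ± 0.65, edgeR adjusted p = 0.0319), and this call was lost without any 1 of 4 libraries. Without replicate 1 of WT_M2 vehicle it was -1.02 (edgeR adjusted p = 0.293), and without replicate 2 of that group -1.91 (0.0591). Without replicate 1 of WT_M1 vehicle it was -1.88 (0.0868) and without replicate 3 of that group -1.62 (0.124).

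Ptgs1, the constitutive cyclooxygenase, was lower in M1 than in M2 cells of both genotypes. WT_M1 libraries held 23.5, 10.9 and 12.8 CPM and WT_M2 libraries 45.4, 58.2 and 74.7 CPM (-1.92 ± 0.53, edgeR adjusted p = 0.00759). KO_M1 libraries held 1.92, 16.5 and 9.82 CPM and KO_M2 libraries 66.6, 64.6 and 65.0 CPM (-2.78 ± 0.55, edgeR adjusted p = 0.000403). Neither pair of groups overlapped. Against M0, Ptgs1 fell by 3.31 ± 0.55 in KO_M1 (edgeR adjusted p = 3.07e-05), where KO_M0 libraries held 82.5, 94.5 and 107 CPM. In WT_M0 it was at 22.4, 33.7 and 32.5 CPM, and the WT_M1 difference of -0.91 did not pass (0.27). The M1 response differed between KO and WT by -2.40 ± 0.76 (edgeR adjusted p = 0.0253), and without any 1 of 5 libraries (replicates 1 and 3 of KO_M1, 3 of KO_M0, 1 of WT_M0 and 1 of WT_M1 vehicle) that adjusted p lay between 0.0525 and 0.0947.

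Tbxas1, thromboxane synthase, separated the genotypes as well. WT_M2 vehicle libraries held 135, 230 and 251 CPM against 73.8, 42.3 and 49.8 CPM in WT_M0, a rise of 1.89 ± 0.33 with no overlap (edgeR adjusted p = 0.000116). KO_M1 libraries held 40.4, 41.8 and 41.5 CPM against 151, 162 and 166 CPM in KO_M0, and Tbxas1 fell by 1.95 ± 0.34 (edgeR adjusted p = 3.58e-05). KO_M2 libraries were split, at 218, 114 and 59.0 CPM, with the highest value in the replicate with the highest Retnla, and did not differ from KO_M0 (-0.29 ± 0.32, edgeR adjusted p = 0.492). The genotypes differed in the response to M1 (-2.38 ± 0.47, edgeR adjusted p = 0.000586) and to M2 (-2.18 ± 0.46, 0.000981). Without replicates 2 and 3 of KO_M2 vehicle the M2 difference was -1.44 (0.045). The 7 markers of platelets, which also hold thromboxane synthase, summed to 16.8 to 31.7 CPM in KO_M0 vehicle, 5.74 to 8.52 CPM in WT_M0 vehicle, 2.71 to 18.5 CPM in KO_M0 with AP-3-84 and 8.23 to 112 CPM in WT_M2 vehicle. Of the 7, Ppbp, a chemokine gene, reached 104 CPM in M2 and 16.9 CPM in M0 libraries. Gp1ba was at 0 in every library, while Treml1 reached 7.39 CPM and Gp1bb 5.85 CPM in bone marrow-derived cells. Gp6, Itga2b and Gp9 reached at most 1.76, 1.54 and 0.64 CPM, so the highest sums rested mainly on Ppbp. The platelet markers were thus not raised as a set. Their part in the Tbxas1 values was not tested.

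In the leukotriene branch, Ltc4s differed between genotypes in its M2 response. Its WT_M2 vehicle libraries held 36.5, 22.3 and 28.5 CPM, its WT_M0 libraries 3.14, 3.82 and 4.86 CPM and its WT_M1 libraries 0.894, 1.06 and 1.51 CPM. None of these groups overlapped. Ltc4s rose by 2.88 ± 0.52 in WT_M2 against M0 (edgeR adjusted p = 0.000115) and was lower in M1 than in M2 (-4.60 ± 0.61, 7.49e-07). In KO cells M0 rather than M2 was highest: M0 libraries held 11.8, 14.5 and 17.6 CPM, M2 libraries 2.39, 4.28 and 3.22 CPM, and M1 libraries 1.10, 0.506 and 0.446 CPM. Ltc4s fell by 2.13 ± 0.53 in KO_M2 (edgeR adjusted p = 0.00212) and by 4.39 ± 0.67 in KO_M1 (4.2e-06). The M2 response differed between genotypes by -5.01 ± 0.75 (edgeR adjusted p = 1.49e-05), and by -4.81 without replicate 1 of WT_M2 vehicle and -5.48 without replicates 2 and 3 of KO_M2 vehicle. In KO cells the difference between M1 and M2 (-2.26 ± 0.74, edgeR adjusted p = 0.0221) rested on counts near 0 and was lost without any 1 of 3 libraries, with adjusted p from 0.0681 without replicate 2 of KO_M1 vehicle, through 0.0805 without replicate 2 of KO_M2 vehicle, to 0.094 without replicate 3 of KO_M1 vehicle. Without replicates 2 and 3 of KO_M2 vehicle it was -1.76 (0.253).

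Alox5, 5-lipoxygenase, was low in all bone marrow-derived cells and highest in WT_M0, with 18.2, 14.6 and 14.8 CPM. It fell in WT_M2 to 6.12, 3.02 and 6.02 CPM, with no overlap (-1.64 ± 0.44, edgeR adjusted p = 0.0057). In KO cells it was higher in M1 (3.57, 4.56 and 2.90 CPM) than in M2 (0.531, 0.901 and 1.98 CPM) by 1.65 ± 0.56 (edgeR adjusted p = 0.0272). That call was lost without any 1 of 4 libraries: replicates 1 (0.0572) and 2 (0.0753) of KO_M1 vehicle and replicates 1 (0.129) and 2 (0.0949) of KO_M2 vehicle.

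Alox5ap, whose protein FLAP presents arachidonic acid to 5-lipoxygenase, moved by less. WT_M1 libraries held 699, 625 and 619 CPM, WT_M0 libraries 551, 487 and 438 CPM and WT_M2 libraries 370, 341 and 361 CPM, in that order with no overlap. It rose by 0.40 ± 0.13 in WT_M1 (edgeR adjusted p = 0.0327) and fell by 0.46 ± 0.13 in WT_M2 (0.00879), and M1 lay above M2 by 0.86 ± 0.13 (5.11e-06). The WT_M1 rise was lost without any 1 of 5 libraries (adjusted p from 0.0594 to 0.17: replicates 2 and 3 of WT_M0 and each WT_M1 vehicle library) and the WT_M2 fall without replicate 1 of WT_M0 vehicle (-0.37, 0.0638). Scaling by total counts alone put the WT_M1 rise at 0.10 (0.641). In KO cells it fell by 0.32 ± 0.13 in M2 (edgeR adjusted p = 0.0471), a call lost without any KO_M0 vehicle library, or without replicate 1 or 3 of KO_M2 vehicle, with adjusted p from 0.0575 to 0.223. Lta4h, the leukotriene A4 hydrolase, was at 11.3 to 30.3 CPM in all vehicle groups of these cells and changed only between KO_M1 and KO_M2 (-0.76 ± 0.24, edgeR adjusted p = 0.0176). That call was lost without replicate 1 of KO_M1 vehicle (0.125), replicate 1 of KO_M2 vehicle (0.0554) or replicate 3 of KO_M2 vehicle (0.0811), and without replicates 2 and 3 of that group it was -0.79 (0.0861).

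The comparison of p53 knockout with WT cells was made in each state. In M0, 5 of 8 members were called (3 higher and 2 lower in KO) beside 33.2% of all genes tested (16.4% higher, 16.8% lower). In M1, 2 of 8 were called (1 higher, 1 lower) beside 11.6% (5.93% higher, 5.71% lower), and in M2, 3 of 8, all lower, beside 3.56% (1.21% higher, 2.34% lower). The members' median log2 difference was -0.28 in M0, -0.76 in M1 and -1.09 in M2, against at most 0.03 over all genes.

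KO_M0 cells had more Ptgs1, Tbxas1 and Ltc4s and less Ptges and Alox5 than WT_M0 cells, and for each of the 5 the libraries given above did not overlap. Ptgs1 was higher by 1.68 ± 0.50 (edgeR adjusted p = 0.0111, and 0.0598 without replicate 1 of WT_M0 vehicle), Tbxas1 by 1.53 ± 0.33 (0.000861) and Ltc4s by 1.89 ± 0.52 (0.00595). Alox5 was at 1.05, 4.31 and 1.62 CPM in KO_M0 against 14.6 to 18.2 CPM in WT_M0 (-2.79 ± 0.48, edgeR adjusted p = 4.87e-05). Ptges differed by -2.60 ± 0.72 (edgeR adjusted p = 0.0075). These KO_M0 libraries also held more RNA of the 5 fibroblast markers than WT_M0 vehicle libraries (22.5 to 26.2 CPM). They held 161 to 288 CPM in sum, with Pdgfra at 0 in at least 1 library. Over all M0 libraries Col1a1 and Col1a2 reached 142 and 154 CPM, and Col3a1, Dcn and Pdgfra only 7.39, 1.31 and 1.57 CPM. The sum thus rested mainly on Col1a1 and Col1a2. The same KO_M0 vehicle libraries are the baseline of the KO polarization results and of their differences from WT. Whether fibroblasts had a part in any of these differences was not tested.

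In M1 cells Ptgs2 was higher in KO (2.80 ± 0.65, edgeR adjusted p = 0.00698) and Alox5ap lower, at 349, 446 and 345 CPM against 699, 625 and 619 CPM (-0.77 ± 0.13, 0.000213). Neither gene overlapped between genotypes. The 6 neutrophil markers summed to 1258 to 1856 CPM in KO_M1 vehicle and to 644 to 839 CPM in WT_M1 vehicle. Of these markers, Ly6g reached at most 1.26 CPM in M1 libraries. Their part in these differences was not tested. In M2 cells Ltc4s was lower in KO with no overlap (-3.12 ± 0.53, edgeR adjusted p = 0.000675), at -2.94 without replicate 1 of WT_M2 vehicle (0.00409) and -3.60 without replicates 2 and 3 of KO_M2 vehicle (0.109). Alox5 was lower in KO (-2.11 ± 0.55, edgeR adjusted p = 0.0254), with adjusted p from 0.0597 to 0.119 when replicate 1 or 2 of KO_M2 vehicle or replicate 1 or 3 of WT_M2 vehicle was left out, and at -3.19 without replicates 2 and 3 of KO_M2 vehicle (0.257). Ptges was lower too (-3.15 ± 0.69, edgeR adjusted p = 0.0115), but the difference was -1.08 without replicate 1 of WT_M2 vehicle (0.273), -2.97 without replicate 3 of KO_M2 vehicle (0.0804) and -3.53 without replicates 2 and 3 of that group (0.4).

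Ascites and thio macrophages differed in 8 of 8 members tested, 7 higher and 1 lower in ascites, where 33.7% of all genes were called (20.3% higher, 13.4% lower). The median log2 difference was 1.17 over the members and 0.05 over all genes. None of these 8 had overlapping vehicle libraries, and the share of all genes without overlap was not counted. The tumour or irritant, the days before harvest and the genotype label differed together between ascites and thio, so their parts cannot be told apart. Both cyclooxygenases were higher in ascites. Ptgs1 was at 50.4, 51.1 and 53 CPM against 14.1, 12.5 and 13.2 CPM (1.96 ± 0.09, edgeR adjusted p = 1.84e-11), and Ptgs2 at 3.00, 3.30 and 2.06 CPM against 0.0638, 0.182 and 0.542 CPM (3.32 ± 0.54, 8.74e-05). Ptges was at 18.4, 14.2 and 15.4 CPM against 5.11, 5.10 and 4.88 CPM (1.67 ± 0.14, edgeR adjusted p = 4.6e-08). Hpgds went the other way, at 56.9, 58.1 and 60.9 CPM against 128, 120 and 131 CPM, a ratio of 0.464, given as a description because both groups are controls of the contrasts that chose it.

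In the leukotriene branch of the same cells, Alox5 was at 8.33, 8.08 and 9.71 CPM in ascites and 3.38, 3.89 and 3.47 CPM in thio (1.28 ± 0.20, edgeR adjusted p = 5.86e-05). Ltc4s was at 23.1, 23.1 and 23.5 CPM against 9.64, 14.5 and 9.55 CPM (1.05 ± 0.15, edgeR adjusted p = 1.8e-05). Lta4h was lower in ascites, at 17.5, 21.6 and 21.6 CPM against 33.8, 31.0 and 30.4 CPM (-0.65 ± 0.11, edgeR adjusted p = 9.56e-05). Ascites cells thus had more RNA of the leukotriene C4 synthase and less RNA of the leukotriene A4 hydrolase, while enzymes and lipids were not measured here. Tbxas1 (0.37 ± 0.07, edgeR adjusted p = 0.000289) and Alox5ap (0.28 ± 0.05, 0.000293) differed by less, and in a fit of all 48 libraries neither passed (0.467 and 0.104). Mesothelial, epithelial or tumour markers summed to 222 to 264 CPM in ascites vehicle and to 3.09 to 4.98 CPM in thio vehicle, with none of the 10 markers at 0 in ascites. Their part in these differences was not tested.

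AP-3-84 called few members. Leaving out Hpgds, 6 of 64 tests over 8 populations passed, 2 higher and 4 lower, and 13 had an unadjusted p under 0.05. The calls fell in 3 populations. Thio had 1 of 8, higher, beside 4.32% of all genes (2.51% higher, 1.82% lower). WT_M2 had 2 of 8, 1 in each direction, beside 1.21% (0.229% higher, 0.976% lower). KO_M0 had 3 of 8, all lower, beside 20.7% (12.1% higher, 8.57% lower). In the other 5 populations 0 of 8 members were called by edgeR, and DESeq2 also called 0: ascites (1.79% of all genes called, 1.69% higher and 0.1% lower), WT_M0 (0.144%, all higher), WT_M1 (0.017%, all higher), KO_M1 (0%) and KO_M2 (0.0509%, with 0.034% higher and 0.017% lower). Of those, ascites had 2 members with an unadjusted p under 0.05 and WT_M1 had 1. In simulated data the same steps recovered 62% of log2 changes of 1 in WT_M0 and 91% in ascites. An absent call therefore does not exclude such a change.

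**Figure D3:**
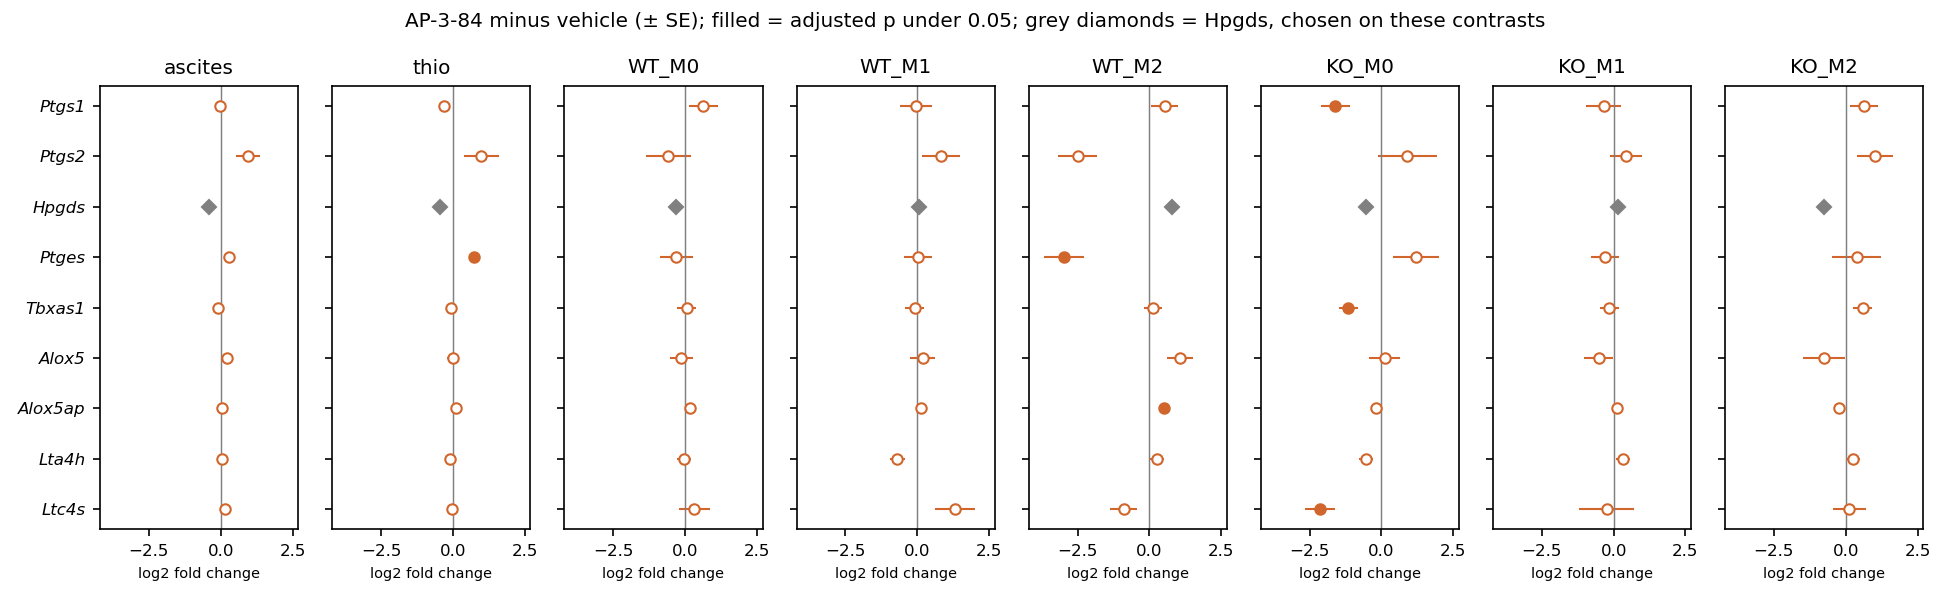
Log2 fold change ± SE (x axis) of AP-3-84 against vehicle in each of the 8 populations for 9 genes, filled where the adjusted p was under 0.05; the grey diamonds show Hpgds, which was chosen on these contrasts and carries no test. The filled points are Ptges in thio (0.73), Ptges (-2.98) and Alox5ap (0.50) in WT_M2, and Ptgs1 (-1.61), Tbxas1 (-1.15) and Ltc4s (-2.14) in KO_M0.

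In thio cells Ptges went from 5.11, 5.10 and 4.88 CPM to 9.10, 7.69 and 8.17 CPM with AP-3-84, a factor of 1.65 with no overlap (0.73 ± 0.15, edgeR adjusted p = 0.00741). In ascites cells it went from 18.4, 14.2 and 15.4 CPM to 20.4, 18.0 and 20.0 CPM, which overlapped and did not pass (0.28 ± 0.13, edgeR adjusted p = 0.461), and the 2 responses did not differ by the test (-0.44 ± 0.20, 0.621). The thio call was absent from a fit of all 48 libraries (0.72, edgeR adjusted p = 1). Ptgs2 was at 6.04, 6.73 and 3.51 CPM in ascites with AP-3-84, above all 3 vehicle libraries (2.06 to 3.30 CPM), with an edgeR adjusted p of 0.415. Ptgs1 in thio cells was at 11.6, 10.6 and 9.71 CPM with AP-3-84, below all vehicle libraries, also without passing (-0.32 ± 0.10, edgeR adjusted p = 0.077).

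In WT_M2 cells both calls depended on single libraries. Ptges was at 2.78, 5.63 and 1.95 CPM with AP-3-84 against 69.0, 6.94 and 6.02 CPM in vehicle (-2.98 ± 0.70, edgeR adjusted p = 0.0298). Without vehicle replicate 1 the difference was -0.90 (0.536), and without replicate 1, 2 or 3 of the treated group the adjusted p was 0.175, 0.0761 or 0.123. Alox5ap was at 548, 514 and 456 CPM with AP-3-84 against 370, 341 and 361 CPM, with no overlap (0.50 ± 0.13, edgeR adjusted p = 0.0426). Leaving out any vehicle library, or replicate 1 or 2 of the treated group, gave adjusted p from 0.077 to 0.251, with log2 differences from 0.44 to 0.52. Ptgs2 was at 4.94, 8.04 and 9.45 CPM with AP-3-84 and 81.0, 41.6 and 4.12 CPM in vehicle, which overlapped (-2.49 ± 0.68, edgeR adjusted p = 0.0702).

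In KO_M0 cells Ptgs1, Tbxas1 and Ltc4s fell with AP-3-84. The comparison shares its vehicle libraries with that of KO_M0 and WT_M0 cells. Ptgs1 went from 82.5, 94.5 and 107 CPM to 16.7, 7.40 and 69.1 CPM (-1.61 ± 0.50, edgeR adjusted p = 0.0228). Tbxas1 went from 151, 162 and 166 CPM to 68.0, 37.7 and 110 CPM (-1.15 ± 0.33, edgeR adjusted p = 0.0126). Ltc4s went from 11.8, 14.5 and 17.6 CPM to 0.758, 0 and 9.27 CPM (-2.14 ± 0.54, edgeR adjusted p = 0.00471). For all 3 genes, treated replicates 1 and 2 were far below replicate 3, and these are the replicates with 2896 and 2067 CPM of Marco. Without both, with the lone replicate 3 assumed to vary like other groups, the differences were -0.44 (edgeR adjusted p = 0.881), -0.52 (0.812) and -0.64 (0.724). Leaving out replicate 1 or 2 alone gave adjusted p of 0.127 and 0.138 for Ptgs1 and 0.0591 and 0.118 for Tbxas1, and Ptgs1 also missed the threshold without vehicle replicate 3 (0.0669). The compound and the state of those 2 libraries cannot be told apart.

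**Figure D4:**
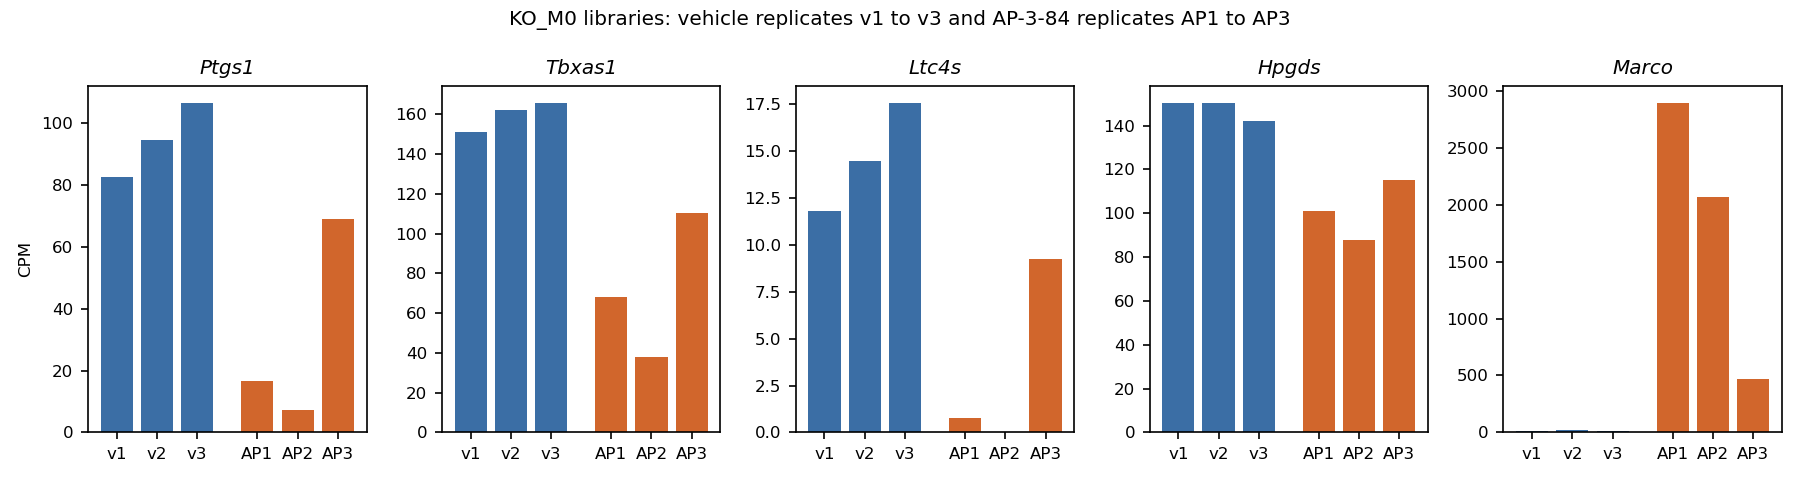
CPM (y axis, linear, from 0) of Ptgs1, Tbxas1, Ltc4s, Hpgds and the scavenger receptor gene Marco in each KO_M0 library, 3 vehicle (blue) and 3 with AP-3-84 (orange). Ptgs1, Tbxas1 and Ltc4s were lowest in treated replicates 1 and 2, where Marco stood at 2896 and 2067 CPM.

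Responses to AP-3-84 were compared between populations in 6 contrasts, and 4 of 48 member tests passed. KO and WT differed in M0 for Ptgs1 (-2.25 ± 0.70, edgeR adjusted p = 0.0284) and Ltc4s (-2.47 ± 0.77, 0.0248), 2 of 8 members beside 17% of all genes (10% higher, 6.99% lower). Without replicates 1 and 2 of KO_M0 with AP-3-84 these were -1.08 (0.495) and -0.97 (0.448). Leaving out 1 library each lost the Ptgs1 call for 6 libraries (adjusted p from 0.0608 to 0.0855) and the Ltc4s call for 5 (from 0.0551 to 0.077), controls included. In M2, KO and WT differed for Ptgs2 (3.51 ± 0.93, edgeR adjusted p = 0.0495) and Alox5ap (-0.74 ± 0.18, 0.03), 2 of 8 beside 1.77% (1.08% higher, 0.688% lower). Without replicates 2 and 3 of KO_M2 vehicle, which leaves that group 1 library, neither passed (3.25, 0.82, and -0.50, 0.895), and Ptgs2 was 2.65 without replicate 1 of WT_M2 vehicle (0.129). With 1 library left out at a time, Ptgs2 lost its call for 9 of 12 libraries (adjusted p from 0.0688 to 0.155) and Alox5ap for 7 (from 0.0691 to 0.115). In the 4 other contrasts (ascites against thio, KO against WT in M1, M1 against M0 and M2 against M0) edgeR and DESeq2 called 0 of 8 members, where 0.118%, 0.00849%, 0.492% and 1.87% of all genes were called. At an unadjusted p under 0.05 these contrasts held 2, 1, 0 and 4 members.

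Of the other genes of the pathway, 62 were in the table, of which 45 were tested in peritoneal and 33 in bone marrow-derived cells. With AP-3-84, 4 of 45 were called in ascites, all higher, beside the 1.79% of all genes given above, and 3 rose and 2 fell in thio, beside 4.32%. Ptgr1, a reductase that inactivates prostaglandins and leukotriene B4, rose in both, to 89.8 CPM from 39.3 CPM in ascites (1.19 ± 0.11, edgeR adjusted p = 4.28e-06) and to 151 CPM from 67.3 CPM in thio (1.17 ± 0.10, 4.3e-06). Abcc1, an exporter of leukotriene C4, rose to 113 CPM from 70.4 CPM in ascites (0.68 ± 0.06, edgeR adjusted p = 5.16e-06) and to 97.1 CPM from 56.1 CPM in thio (0.79 ± 0.06, 9.65e-07), and Cysltr1, a leukotriene receptor, fell in thio (-0.59 ± 0.13, 0.0139). In KO_M0, 5 of 33 rose and 1 fell, a share near the 20.7% of all genes, among them Abcc4, a prostaglandin E2 exporter (1.15 ± 0.34, edgeR adjusted p = 0.015), and Pla2g15, a lysosomal phospholipase (-0.86 ± 0.20, 0.00274). Without treated replicates 1 and 2 none of these 6 passed, with Abcc4 at 0.16 (0.963) and Pla2g15 at -0.72 (0.465). In WT_M0 only Ptgir, the prostacyclin receptor, was called (1.12 ± 0.22, edgeR adjusted p = 0.0169).

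Around the synthases, ascites cells had more Cysltr1 than thio cells (44.7 against 7.62 CPM, 2.55 ± 0.12, edgeR adjusted p = 1.39e-11), more Pla2g4a, the phospholipase that frees arachidonic acid (29.6 against 8.65 CPM, 1.77 ± 0.15, 3.72e-08), and more Ptger4, a prostaglandin E2 receptor (44.3 against 15.2 CPM, 1.54 ± 0.10, 2.01e-09). They had less Mgll, a lipase that can also supply arachidonic acid (2.00 against 17.4 CPM, -3.11 ± 0.33, edgeR adjusted p = 1.87e-06), and 14 of 45 genes were higher and 11 lower, beside 33.7% of all genes called. In M2 cells, Mgll rose in WT from 1.19 to 23.5 CPM (4.26 ± 0.65, edgeR adjusted p = 1.35e-05) and the leukotriene B4 receptor gene Ltb4r1 from 0.857 to 9.24 CPM (3.37 ± 0.68, 0.000429), with 9 of 33 genes higher and 4 lower beside 23.4% of all genes. Without replicate 1 of WT_M2 vehicle these were 4.32 (3.18e-05) and 2.85 (0.00508), with 7 genes higher and 4 lower. In KO_M2, 12 rose and 8 fell beside 38% of all genes, and Ptgir went from 7.50 to 51.4 CPM (2.79 ± 0.24, edgeR adjusted p = 1.94e-10). Without replicates 2 and 3 of KO_M2 vehicle, 8 were higher and 4 lower, and Ptgir was at 2.89 (8.96e-09). Hpgd, which breaks down prostaglandins, was at 50.9 CPM in KO_M0 vehicle against 0.968 CPM in WT_M0 (5.68 ± 1.13, edgeR adjusted p = 0.000927), and had 0 counts in KO_M1 vehicle.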

How the data were processed

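Per the labels' protocols, 100 ng of RNA per sample went into 3′-end libraries read at 75 bases. The values used are whole-number counts per gene as deposited by the authors. The submitters' processing notes name RSEM, Bowtie2 and DESeq2, so counts may be rounded estimates. Genome build, annotation, molecular identifiers and use of strand: not given in the sources used here. Groups follow titles and descriptions, since the genotype field reads wild-type for all bone marrow-derived samples.

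Counts were fitted with edgeR 4.0.16 in R 4.3.3 (TMM scaling, filterByExpr, robust quasi-likelihood test), with 16955 genes tested in 12 peritoneal and 11779 in 36 bone marrow-derived libraries. Adjusted p-values are Benjamini-Hochberg, over all genes of each of 26 comparisons. SE is the log2 fold change over the root of the F statistic. The steps were tested on simulated data. Alternatives were other scalings, no count filter, DESeq2 1.42.0, other sample sets, a replicate block and each library left out. Libraries left out in pairs were chosen after seeing the data. The members and lists were chosen with earlier results of these data known. All 10 members are named, with other pathway genes taken from those with the largest changes within their role. Hpgds was fitted with the others but carries no test. Replicate pairs differed by more than counting noise (chi-square per gene 2.51 to 38.7).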

Additional observations from a re-analysis of the deposited data

Results flagged for a closer look

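Of the tests of a difference between groups, 10 passed for members. The AP-3-84 response differed between KO and WT cells in M0 for Ptgs1 (log2 difference -2.25) and Ltc4s (-2.47), 2 of 8 members beside 17% of all genes. In M2 it differed for Ptgs2 (3.51) and Alox5ap (-0.74), 2 of 8 beside 1.77%. These 4 calls were among 48 tests of AP-3-84 responses. The response to LPS and IFN-γ differed between KO and WT for Ptgs1 (-2.4), Ptgs2 (4.67), Tbxas1 (-2.38) and Alox5ap (-0.535), 4 of 8 beside 20.7%. The response to IL-4 and IL-13 differed for Tbxas1 (-2.18) and Ltc4s (-5.01), 2 of 8 beside 27.1%, a share close to that of all genes.

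For Ltc4s the direction of the M2 response itself turned with genotype, from a rise of 2.88 in WT to a fall by 2.13 in KO. The KO fall was taken against KO_M0 vehicle, where Ltc4s was higher than in WT_M0 vehicle and fibroblast markers summed to 161 to 288 CPM. That sum rested mainly on Col1a1 and Col1a2, while Col3a1, Dcn and Pdgfra reached at most 7.39 CPM in M0 libraries. What the state of the KO_M0 vehicle libraries adds to this turn was not tested. The Alox5ap difference in the M1 response lost its call without any 1 of 10 libraries, with edgeR adjusted p from 0.0517 to 0.108. With 3 libraries a group, single libraries far from the others were not tested for.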

How the results depend on the processing

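The counts in these paragraphs include Hpgds between vehicle groups (7 of 69 results), which the text above leaves untested. Of 69 member results past the threshold, 40 passed under every setting tried other than the omission of library pairs, 29 lost the call in at least 1 of those settings, and 0 changed direction in them. Among the 29, 23 lost it when 1 library was left out, and 20 of the 69 when only the groups compared were fitted, which leaves fewer libraries to estimate the spread. The comparison of AP-3-84 with vehicle had 6 calls, 1 when only the groups compared were fitted and 3 without replicates 1 and 2 of KO_M0 with AP-3-84. Differences between AP-3-84 responses had 4 calls, 10 without the count filter, 0 when only the groups compared were fitted, and 2 without replicates 1 and 2 of KO_M0 with AP-3-84 or without replicates 2 and 3 of KO_M2 vehicle. KO against WT had 11 calls, and 7 without that KO_M2 pair, where Hpgds in M2 turned to -0.080. Leaving out each replicate gave 4 to 7 calls for AP-3-84, 2 to 9 for its differences, 17 to 19 for polarization, 12 to 15 for M1 against M2, 9 to 11 for genotype, 4 to 7 for genotype with polarization, and 9 for ascites against thio. The cause was not tested.

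Replicate numbers were not treated as pairs. Of 24 same-numbered pairs, 5 had deviations correlated above 0.1, up to 0.509 in KO_M1, and 0 populations had all 3. Different-numbered pairs were not compared, so pairing within single populations could not be told. With the replicate block the counts were 4 for AP-3-84, 3 for its differences, 17 for polarization, 15 for M1 against M2, 11 for genotype, 6 for genotype with polarization and 9 for ascites against thio. Depth limits Ptgds, Alox5 in KO cells and Ltc4s in M1 cells, whose values rest on few counts.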
